A study of Homo sapiens with 6 samples.

Results

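The fatty acid desaturases and elongases of the SCD, FADS and ELOVL families were followed in T24 cells, an established human bladder cancer cell line. These 10 genes, of 23152 in the deposited tables, were taken from a list of symbols, namely SCD, SCD5, FADS1, FADS2, FADS3, ELOVL1, ELOVL4, ELOVL5, ELOVL6 and ELOVL7. The list was drawn up with earlier results of these data known and does not hold every gene of the families: ELOVL2, ELOVL3 and FADS6, of which only ELOVL3 passed the filter on low counts, are described with the surrounding pathway. RNA was sequenced from 3 samples labelled vector and 3 samples labelled oeRNF112, in which RNF112, a gene for an E3 ubiquitin ligase, was overexpressed. The study made T24 cells that overexpress RNF112 both by transfection of a plasmid and by lentivirus, and which of these was sequenced is not given in the sources used here. All 6 samples were T24 cells grown in RPMI 1640 with fetal bovine serum, and no label gives the time of harvest. The treatment text in the labels speaks of siRNA delivered with Lipofectamine 3000, whereas the sample titles name vector and oeRNF112, and the titles were followed here. No label says that the samples came from separate cultures, so the p-values measure the spread between these samples, which may be technical.

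The libraries held totals of 41259569, 40482655 and 40326143 counts in vector and of 40029547, 40541536 and 40375330 counts in oeRNF112. At this depth 3 counts correspond to a CPM (count scaled to the depth of the library) between 0.0727 and 0.0749 on the library totals alone, so every gene of the 10 was far above the counting floor. CPM values of single genes were also scaled with edgeR's TMM factors, whereas summed CPM values of marker lists were not. RNF112 itself was counted 27, 19 and 24 times in vector and 29753, 36963 and 31712 times in oeRNF112, so each library matched its label. Its log2 fold change was 10.37 (standard error, SE, 0.177, edgeR adjusted p = 7.4e-10), and the counts may include reads of the introduced construct. Among the markers of the labelled cell type, the epithelial keratin KRT7 had between 39819 and 64094 counts per sample, while the epithelial cadherin CDH1 and the urothelial marker UPK3A had at most 1 count in any sample.

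Desaturases insert double bonds into fatty acyl chains, and elongases catalyse the first, rate-limiting step of the cycle that lengthens such chains at the endoplasmic reticulum. SCD makes monounsaturated fatty acids such as oleate from saturated ones, FADS1 and FADS2 act in the route from dietary linoleic and alpha-linolenic acid to polyunsaturated fatty acids such as arachidonic acid, and the ELOVL enzymes divide saturated, monounsaturated and polyunsaturated chains of different length among them. Several of these genes are known targets of SREBP-1, the transcription factor encoded by SREBF1, and membrane, storage and signalling lipids draw on their products.

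The start regions of 3 members are printed to show the sequence motifs that transcription factors of lipid genes are known to bind. They are the 250 bases before the annotated start of SCD (chr10:100346983-100347232, plus strand), of ELOVL4 (chr6:79947554-79947803, minus strand) and of ELOVL5 (chr6:53348951-53349200, minus strand), from RefSeq on GRCh38.p14, written 5′ to 3′ on the strand of the gene. Capitals mark CACGTG, the E-box, and CCAAT, the box bound by NF-Y, on either strand, so that a CCAAT box on the opposite strand reads ATTGG.
SCD: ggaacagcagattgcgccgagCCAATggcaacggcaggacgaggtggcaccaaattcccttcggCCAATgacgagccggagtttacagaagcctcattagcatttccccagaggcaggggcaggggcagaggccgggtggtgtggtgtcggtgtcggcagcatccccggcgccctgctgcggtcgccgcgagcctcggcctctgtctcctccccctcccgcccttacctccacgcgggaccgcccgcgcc
ELOVL4: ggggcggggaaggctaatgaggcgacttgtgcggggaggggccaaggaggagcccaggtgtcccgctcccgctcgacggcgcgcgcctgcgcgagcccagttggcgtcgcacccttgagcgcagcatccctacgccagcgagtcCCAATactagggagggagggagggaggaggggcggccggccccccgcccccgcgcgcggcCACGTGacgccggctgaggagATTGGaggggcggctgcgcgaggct
ELOVL5: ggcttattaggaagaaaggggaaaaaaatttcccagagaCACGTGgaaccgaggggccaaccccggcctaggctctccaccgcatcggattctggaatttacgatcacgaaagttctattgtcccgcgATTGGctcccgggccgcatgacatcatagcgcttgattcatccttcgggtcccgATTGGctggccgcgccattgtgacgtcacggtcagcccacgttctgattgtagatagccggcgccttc
These 3 were picked for print because ELOVL4 and ELOVL5 are the members with an E-box and SCD is a member with a CCAAT box and no E-box, so they do not stand for the rest. The table held a start region for all 10 members, with 11 regions in all because FADS2 has a pair of annotated starts. The regions of FADS3 and ELOVL6 lie inside the annotated spans of these genes, so the bases before their outermost ends were not searched. The E-box stood in the regions of 2 of the 10 members, ELOVL4 at base -46 and ELOVL5 at base -211 counted from the start, against 8.02% of the 16553 start regions of tested genes. The CCAAT box stood in 6 members, SCD, SCD5, FADS3, ELOVL1, ELOVL4 and ELOVL5, against 32.6% of those regions, and FADS1, FADS2, ELOVL6 and ELOVL7 had none. It was thus found in 2 of the 5 members that differed, SCD, which fell, and ELOVL4, which rose. Of the members that did not differ, SCD5, FADS3, ELOVL1 and ELOVL5 had it and FADS1 lacked it. The GC box GGGCGG stood in 9 members, against 62.1%. The general E-box CANNTG, which includes CACGTG, stood in 5 members, against 54.7%. TCACNCCAC, the only form of the sterol regulatory element that was searched, stood in none, against 0.834%. Other forms of this element were not searched, so its absence from these regions is not shown. All motifs were searched on both strands, and a match in these letters is a description of the sequence and not a site of binding.

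Between oeRNF112 and vector, 5 of the 10 genes differed at an adjusted p under 0.05 from edgeR's quasi-likelihood test with Benjamini-Hochberg adjustment over the 14467 genes tested, against 18.1% of all genes tested. SCD, FADS2 and ELOVL6 were lower in oeRNF112, where 8.14% of all genes were lower, and ELOVL4 and ELOVL7 were higher, where 9.97% were higher. SCD5, FADS1, FADS3, ELOVL1 and ELOVL5 did not pass the test. All 10 genes passed the filter on low counts. Vector and oeRNF112 had CPM values apart from each other for 6 of the 10, the 5 that differed and FADS1, against 36.8% of all genes tested, and FADS1 was apart on the TMM scale but not on the deposited RPKM. Over the 10 genes, the median log2 fold change was -0.06, and that of all genes tested was 0.0027. Scaled by library totals alone, 75.4% of the genes that differed were higher in oeRNF112, compared with 55.0% with the TMM factors, and the same 5 members differed.

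**Figure D1:**
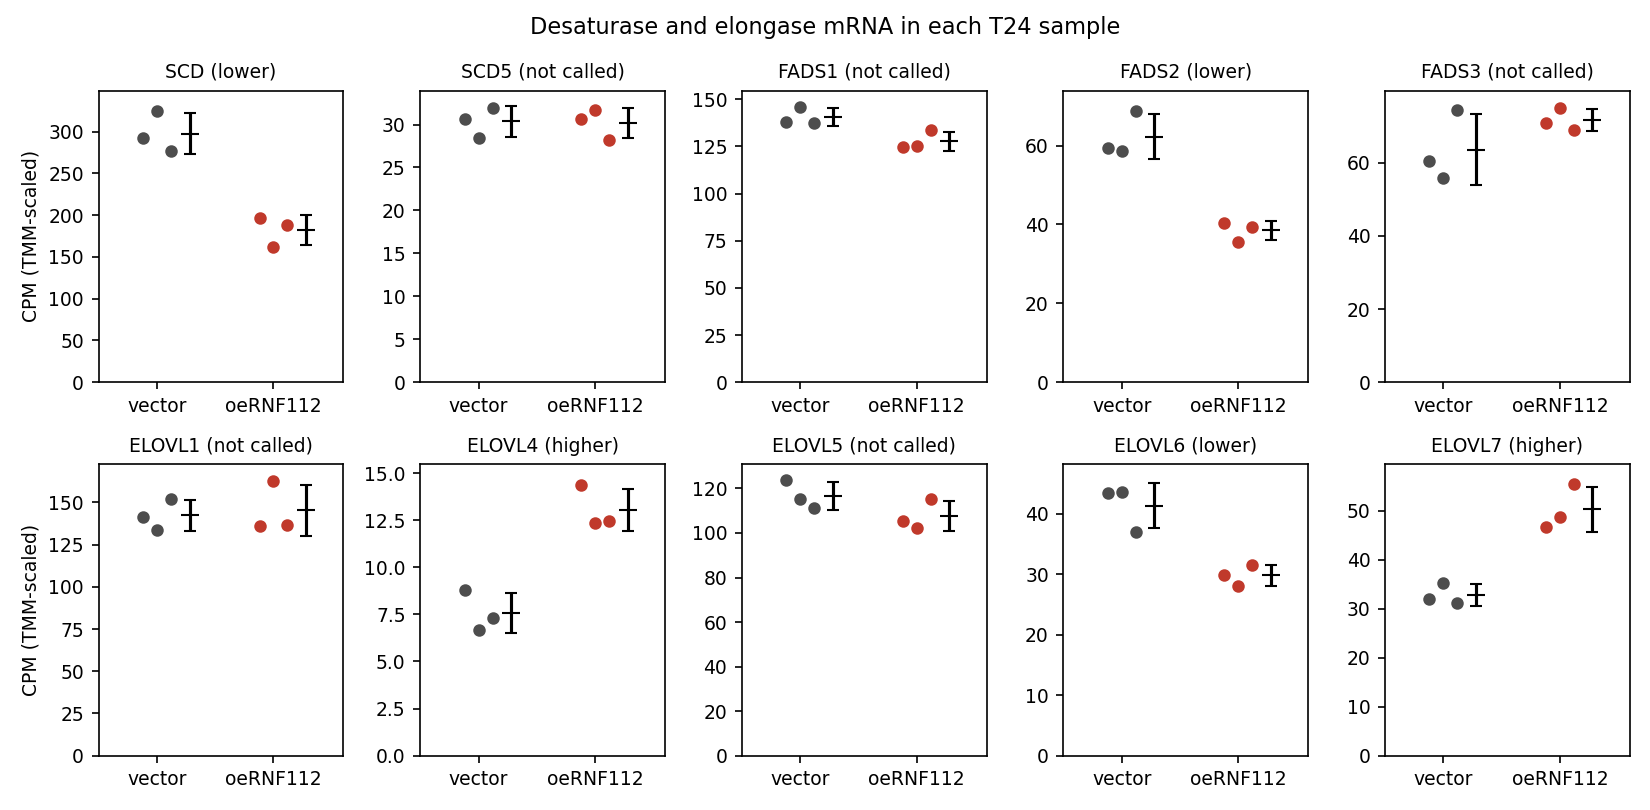
CPM (counts scaled to library depth with TMM factors) of the 10 genes in every sample, with the vector and oeRNF112 samples as points and the group mean and SD drawn beside them. The points of SCD, FADS2 and ELOVL6 in oeRNF112 lie below all vector points, and those of ELOVL4 and ELOVL7 lie above them.

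SCD, the main human stearoyl-CoA desaturase (chr10:100347233-100364826, plus strand, GRCh38.p14), had the lowest log2 fold change of the members in edgeR, close to that of FADS2, which was lower when vector replicate 1, vector replicate 2 or oeRNF112 replicate 2 was left out. It had a CPM of 292, 324 and 276 in vector and of 197, 162 and 188 in oeRNF112. All 3 oeRNF112 samples lay below all 3 vector samples, with the lowest level in oeRNF112 replicate 2. The mean CPM went from 298 ± 24.5 (SD, n = 3) to 182 ± 18.3 (SD, n = 3), a log2 fold change of -0.71 (SE 0.102, 95% interval -0.93 to -0.48, edgeR adjusted p = 0.0019). RefSeq lists a pseudogene of SCD, SCDP1, on chromosome 17, and how reads that match both were counted is not given in the sources used here. SCD5, the other human stearoyl-CoA desaturase, which lies on chromosome 4, had a CPM of 30.7, 28.4 and 32.0 in vector and of 30.7, 31.7 and 28.2 in oeRNF112. The groups overlapped throughout. Its log2 fold change was -0.01 (95% interval -0.22 to 0.20, edgeR adjusted p = 0.967), and its sign turned with library totals, where it was 0.086. The intervals of SCD and SCD5 did not overlap, but the difference between the 2 genes was not tested.

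FADS2, the desaturase that introduces the first new double bond into linoleic and alpha-linolenic acid, lies on chromosome 11 (chr11:61816203-61867354, plus strand). Its CPM was 59.4, 58.6 and 68.8 in vector and 40.3, 35.6 and 39.5 in oeRNF112. The groups did not overlap, and the highest vector value was that of replicate 3. The mean CPM went from 62.3 ± 5.65 (SD, n = 3) to 38.5 ± 2.51 (SD, n = 3), and the log2 fold change was -0.69 (SE 0.0997, 95% interval -0.92 to -0.47, edgeR adjusted p = 0.0018). FADS1, which carries out the later desaturation in the same route, had a CPM of 138, 146 and 138 in vector and of 125, 125 and 134 in oeRNF112. The oeRNF112 values were all below the vector values on this scale, but on the deposited RPKM the groups overlapped, with 29.1, 31.8 and 29.0 in vector and 28.4, 27.9 and 30.8 in oeRNF112. The log2 fold change of FADS1 was -0.14 (95% interval -0.32 to 0.04, edgeR adjusted p = 0.261), and -0.044 on library totals. FADS3, which acts on the sphingoid base of ceramides, had a CPM of 60.5, 55.9 and 74.4 in vector and of 70.9, 75.0 and 69.0 in oeRNF112. Vector replicate 3 lay among the oeRNF112 samples and the other vector samples lay below them. Its log2 fold change was 0.17 (95% interval -0.08 to 0.42, edgeR adjusted p = 0.317). The value depended on single libraries, being 0.30 without vector replicate 3 (edgeR adjusted p = 0.0601), 0.085 without vector replicate 2 and 0.27 on library totals (edgeR adjusted p = 0.114). On the deposited RPKM the groups did not overlap.

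The FADS genes lie side by side on chromosome 11. FADS1 and FADS2 are annotated on opposite strands and overlap by 801 bases, and 6171 bases separate FADS2 from FADS3. The library kit kept strand, per the labels, but the strand setting of the counting is not given in the sources used here, so reads of the overlap may be shared between FADS1 and FADS2.

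ELOVL6, the elongase that makes stearate from palmitate, the substrate of SCD, lies on chromosome 4 (chr4:110045846-110199202, minus strand). Its CPM was 43.4, 43.6 and 37.0 in vector and 29.8, 28.1 and 31.5 in oeRNF112. The oeRNF112 samples all lay below the vector samples, of which replicate 3 came nearest. The log2 fold change was -0.47 (SE 0.101, 95% interval -0.70 to -0.25, edgeR adjusted p = 0.0115). This call was lost without vector replicate 1 (edgeR adjusted p = 0.0751) and without oeRNF112 replicate 1 (adjusted p = 0.0547 from the same test), and with the replicate number as a block in edgeR (adjusted p = 0.0933).

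ELOVL7, an elongase of saturated long chains, lies on chromosome 5 (chr5:60751791-60844269, minus strand). Its CPM was 32.1, 35.4 and 31.1 in vector and 46.7, 48.7 and 55.5 in oeRNF112. Every oeRNF112 sample lay above every vector sample, and replicate 3 was the highest. The log2 fold change was 0.61 (SE 0.101, 95% interval 0.39 to 0.84, edgeR adjusted p = 0.0035). ELOVL4, the elongase of the longest chains, known from the retina and skin, lies on chromosome 6 (chr6:79914814-79947553, minus strand). It had a CPM of 8.77, 6.68 and 7.31 in vector and of 14.4, 12.3 and 12.4 in oeRNF112. The groups did not overlap, and replicate 1 was the highest in both. Its log2 fold change was 0.78 (SE 0.136, 95% interval 0.48 to 1.08, edgeR adjusted p = 0.0044), above the 0.61 of ELOVL7, with intervals that overlapped.

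The remaining elongases did not pass the test. ELOVL1, which makes saturated and monounsaturated very long chains for sphingolipids, had a CPM of 142, 133 and 152 in vector and of 136, 163 and 137 in oeRNF112. The groups overlapped, and its log2 fold change was 0.03 (95% interval -0.19 to 0.25, edgeR adjusted p = 0.867), and 0.12 on library totals. ELOVL5, which lengthens the polyunsaturated products of FADS2, had a CPM of 124, 115 and 111 in vector and of 105, 102 and 115 in oeRNF112. Only oeRNF112 replicate 3 reached the range of the vector samples, and the log2 fold change was -0.12 (95% interval -0.31 to 0.08, edgeR adjusted p = 0.372). It was -0.063 without vector replicate 1, -0.072 without oeRNF112 replicate 2 and -0.024 on library totals. Within the elongases, the changes therefore ran from a fall of ELOVL6 to rises of ELOVL4 and ELOVL7.

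**Figure D2:**
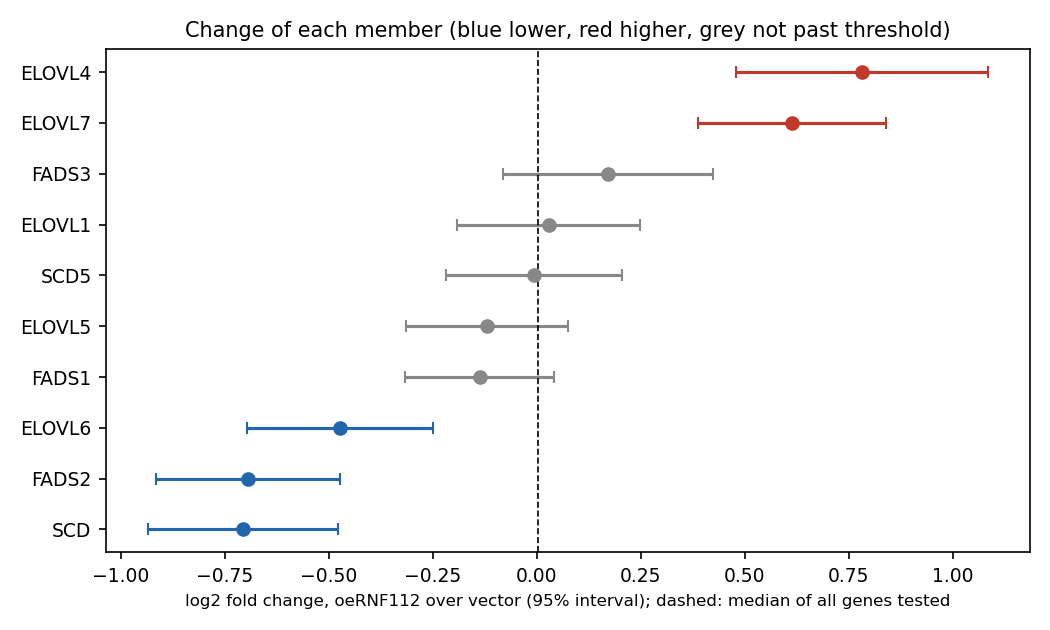
Log2 fold change of each gene, oeRNF112 over vector, from edgeR, with its 95% interval. The intervals of SCD, FADS2 and ELOVL6 lie below 0, those of ELOVL4 and ELOVL7 lie above 0, and those of the other 5 genes include 0.

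Levels of different genes were compared on the deposited RPKM, reads scaled by gene length and library total, which is not scaled with the TMM factors. In vector, the highest level was that of ELOVL1, with an RPKM of 81.2 ± 4.13 (SD, n = 3), followed by SCD with 55.0 ± 5.52 (SD, n = 3). ELOVL5, FADS1 and FADS3 came next at 30.4, 30.0 and 28.2, and the ranges of the neighbours in this order overlapped. FADS2, SCD5, ELOVL6, ELOVL7 and ELOVL4 followed at 16.8, 6.94, 5.85, 5.31 and 2.43, and among them only the ranges of ELOVL6 and ELOVL7 overlapped. In oeRNF112, ELOVL1 stayed first at 88.4 ± 7.86 (SD, n = 3), SCD at 35.9 ± 4.07 (SD, n = 3) overlapped FADS3 at 33.9 ± 0.853 (SD, n = 3), and ELOVL7 at 8.67 stood above SCD5 at 7.37 and ELOVL6 at 4.50. The 3 vector values of the RPKM ratio of ELOVL6 to ELOVL7 were 1.19, 1.08 and 1.04, and the 3 oeRNF112 values were 0.559, 0.505 and 0.498. ELOVL6 was thus the more abundant of the pair in each vector sample and the less abundant in each oeRNF112 sample.

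Shares within each family were made from the same RPKM values and are given as a description. SCD made up 88.7% ± 1.39 (SD, n = 3) of the summed RPKM of SCD and SCD5 in vector and 82.9% ± 2.08 (SD, n = 3) in oeRNF112, and the groups did not overlap. FADS2 made up 22.4% ± 0.486 (SD, n = 3) of the FADS total in vector and 15.8%, 13.8% and 15.3% of it in the single oeRNF112 samples, and FADS3 went from 37.5% ± 3.15 (SD, n = 3) to 45.8% ± 1.97 (SD, n = 3), both without overlap. FADS1 was 40.1% and 39.2% of that total, with overlap. The summed RPKM of SCD and SCD5 went from 61.9 to 43.3, that of the FADS genes from 74.9 to 74.0, and that of the elongases from 125 to 136.

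The surrounding pathway was read from 6 lists of 62 genes, of which 55 passed the filter on low counts and 10 differed, 5 higher and 5 lower. These 18.2% are near the 18.1% of all genes tested. Over the 55 genes, the median log2 fold change was -0.02. Of the 5 other enzymes of these families, 2 were tested. ELOVL3, an elongase of saturated and monounsaturated very long chains, had 34, 41 and 28 counts in vector and 65, 59 and 66 counts in oeRNF112, and its log2 fold change was 0.80 (SE 0.244, edgeR adjusted p = 0.0466). This call was lost in 8 of 14 alternatives, among them DESeq2 (adjusted p = 0.0541) and the omission of any single sample other than vector replicate 2 (edgeR adjusted p between 0.0739 and 0.138). DEGS1, which makes ceramide from dihydroceramide, had a log2 fold change of 0.05 (edgeR adjusted p = 0.685), and ELOVL2, FADS6 and DEGS2 were too low to be tested.

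Of the 6 elongation partners, TECR, which catalyses the last reduction of the cycle, was lower, with a CPM of 86.2, 79.2 and 94.2 in vector and of 67.8, 70.9 and 62.8 in oeRNF112. The groups did not overlap, and its log2 fold change was -0.37 (edgeR adjusted p = 0.027). The other 5 partners did not pass the test, and the median of the 6 with TMM factors was -0.06. Of the 6 cytochrome b5 proteins and reductases that give electrons to the desaturases, none differed with edgeR, DESeq2 or limma, although CYB5R1 did in edgeR without vector replicate 2, 1 had an unadjusted p under 0.05 with all samples, and their median log2 fold change was -0.01. Of 10 tested genes of substrate supply, FASN, the enzyme that builds palmitate, was lower (log2 fold change -0.45, edgeR adjusted p = 0.0264), with a CPM of 119, 150 and 128 in vector and of 95.1, 85.9 and 109 in oeRNF112. The FASN call was lost in 8 of 15 alternatives, among them library totals (edgeR adjusted p = 0.0831), the 3 limma fits (adjusted p between 0.0864 and 0.0975), and edgeR without vector replicate 1 (adjusted p = 0.0572), oeRNF112 replicate 1 (0.0976) or oeRNF112 replicate 2 (0.0732). ACSL3, which activates long-chain fatty acids, was higher (log2 fold change 0.36, edgeR adjusted p = 0.027), and ACSL6 was too low to be tested.

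Among the regulators known to act on genes of fatty acid synthesis, 4 of 18 tested genes differed. SREBF1 had a CPM of 33.0, 34.3 and 38.9 in vector and of 26.2, 22.9 and 24.3 in oeRNF112, without overlap. Its log2 fold change was -0.53 (SE 0.103, edgeR adjusted p = 0.0076). RXRA, the partner of the liver X and PPAR receptors, was lower (log2 fold change -0.35, edgeR adjusted p = 0.0202), as was NFYC, a subunit of NF-Y (log2 fold change -0.31, adjusted p = 0.0372). PPARD, a fatty acid receptor, was higher (log2 fold change 0.29, edgeR adjusted p = 0.0407). The median of the 18 was -0.10, and MLXIPL was too low to be tested. Of 13 tested genes that use the products, PTGS1, which converts arachidonic acid to prostaglandin precursors, was higher with 132, 177 and 163 counts in vector and 250, 327 and 247 counts in oeRNF112 (log2 fold change 0.72, edgeR adjusted p = 0.0197). MBOAT2, which puts acyl chains into lysophospholipids, was higher too (log2 fold change 0.35, edgeR adjusted p = 0.0433), while LPCAT2 and CERS3 were too low to be tested.

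The number of these pathway genes that differed depended on single libraries. Of the 10, SREBF1 alone differed without vector replicate 1. Over all alternatives, SREBF1 kept its call in 14 of 15 and PTGS1 in 12 of 14, ACSL3 and MBOAT2 in 10 of 15 each, TECR in 9 of 15, PPARD in 7 of 15, RXRA in 6 of 15 and NFYC in 5 of 15. The count of pathway genes was 2 without oeRNF112 replicate 1, 4 without oeRNF112 replicate 3, 6 without vector replicate 3, 6 without oeRNF112 replicate 2 and 11 without vector replicate 2.

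**Figure D3:**
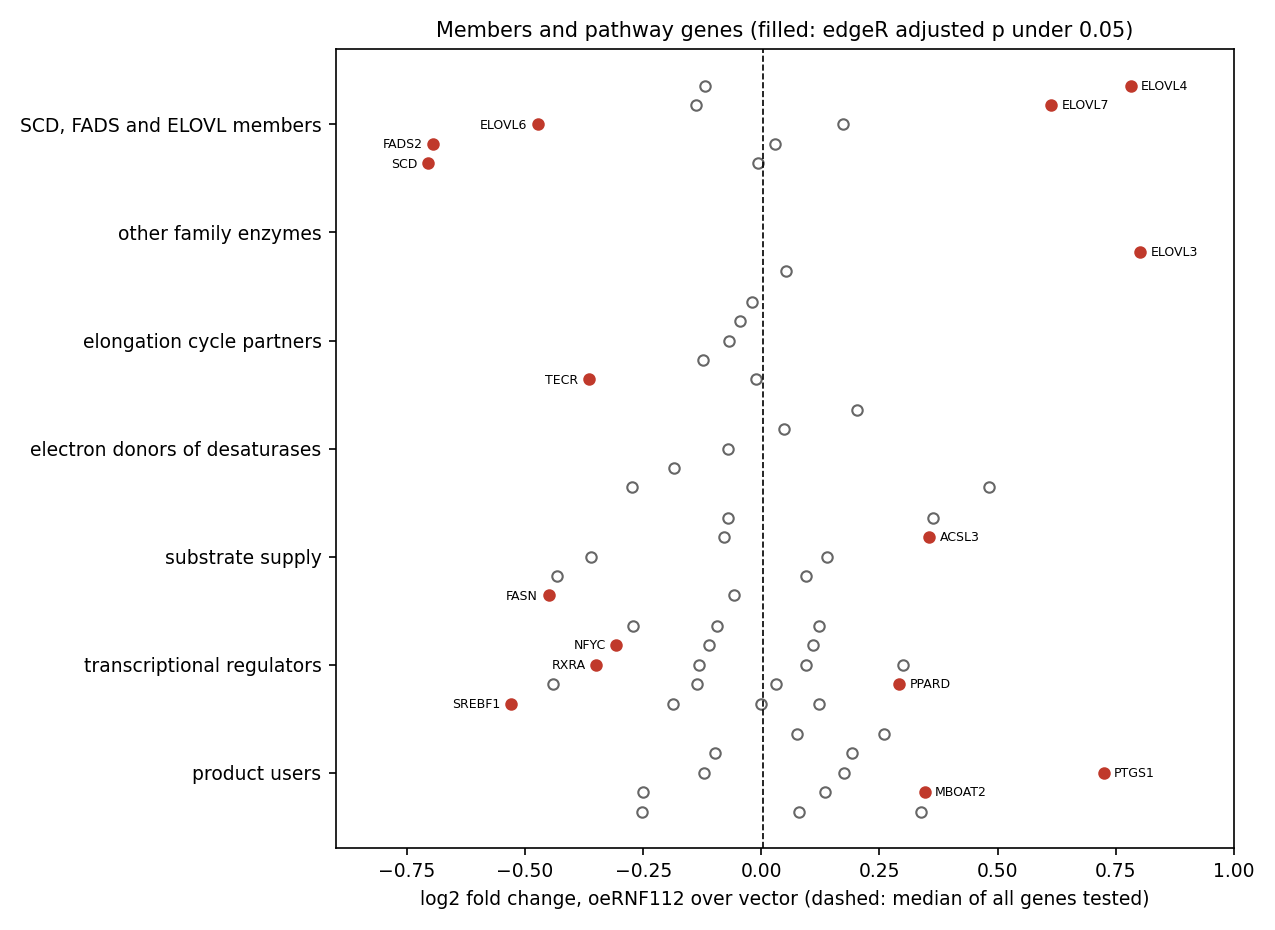
Log2 fold change, oeRNF112 over vector, of the 10 family genes and the 55 tested genes of the 6 pathway lists, one row per list. Filled and named points had an adjusted p under 0.05 in edgeR, open points did not, and the dashed line is the median of all genes tested, 0.0027.

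Some markers of cell types also differed between the groups, where 18.1% of all genes tested differed. Those that did were 3 of 5 tested epithelial, 1 of 3 urothelial, 1 of 3 leukocyte and 1 of 3 fibroblast markers. The 1 tested adipocyte marker did not differ, and no endothelial marker was tested. The summed CPM of the 6 epithelial markers, on library totals alone, was 3771, 3485 and 4351 in vector and 3106, 3296 and 2841 in oeRNF112, led by KRT7. Of the 5 tested, KRT7 and KRT18 were lower and EPCAM was higher. The urothelial markers, led by FOXA1, a transcription factor of luminal urothelium, summed to 38.9, 44.0 and 39.0 and to 25.5, 18.6 and 25.1. FOXA1 itself was lower (log2 fold change -1.08, edgeR adjusted p = 0.0013). Of the markers of cells that a pure line should lack, the 6 leukocyte markers, led by LAPTM5, summed to a CPM of 9.11, 8.10 and 6.99 in vector and of 7.34, 3.55 and 4.46 in oeRNF112. These leukocyte sums overlapped between the groups. Of the 3 leukocyte markers tested, LAPTM5 was lower (log2 fold change -0.88, edgeR adjusted p = 0.0308). The 6 fibroblast markers, led by COL1A1, summed to 6.74, 8.84 and 9.37 in vector and to 11.1, 11.5 and 10.7 in oeRNF112. Of the 3 tested, PDGFRA was higher, from at most 8 counts in any vector sample to 19, 29 and 19 counts in oeRNF112 (edgeR adjusted p = 0.0194), and COL1A2 and DCN had at most 1 count in any sample. The adipocyte markers, led by FABP4, and the endothelial markers, led by VWF, summed to less than 1 in every sample. The part of these markers in the results for the lipid genes was not tested.

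Across 15 alternative settings, SCD, FADS2, ELOVL4 and ELOVL7 differed in the same direction every time. Their log2 fold changes ranged from -0.77 to -0.60 for SCD, from -0.74 to -0.56 for FADS2, from 0.67 to 0.91 for ELOVL4 and from 0.54 to 0.71 for ELOVL7. ELOVL6 differed in 10 of the 15, with log2 fold changes from -0.54 to -0.32.

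**Figure D4:**
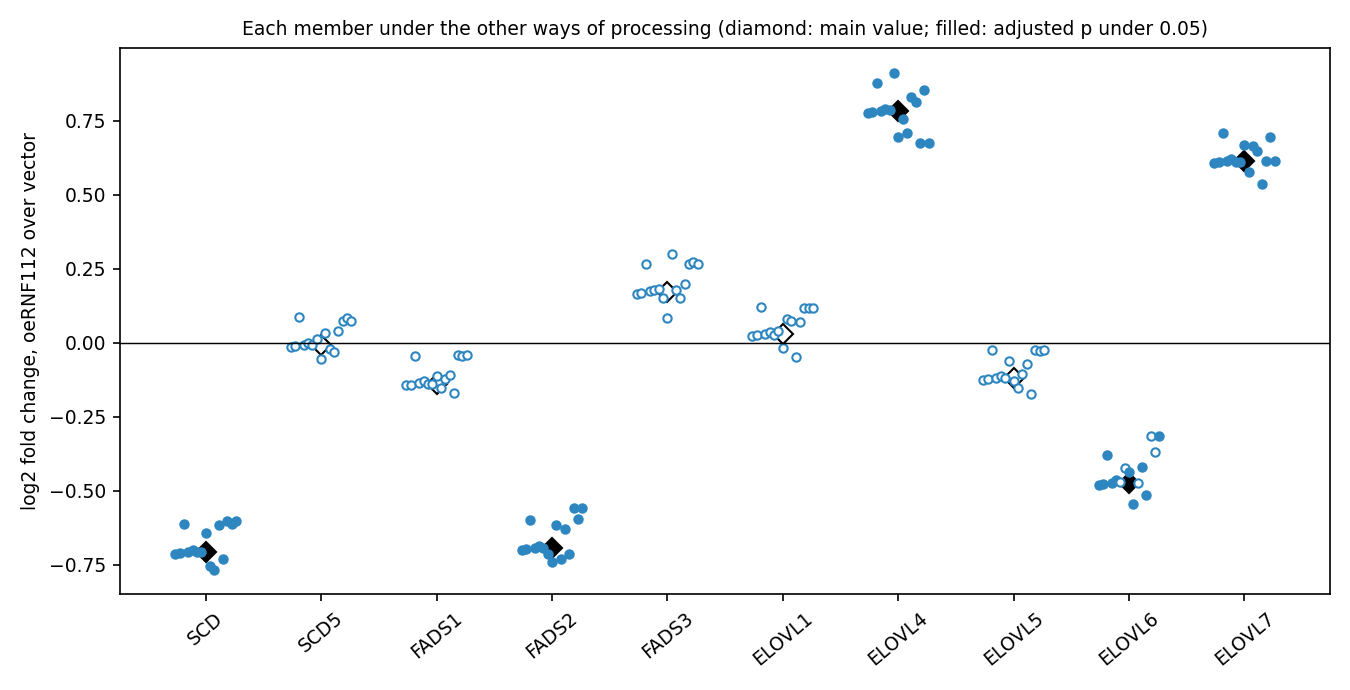
Log2 fold change of each gene under edgeR as reported and under 15 alternative settings, with a filled mark where the adjusted p was under 0.05. SCD and FADS2 stay below 0 and ELOVL4 and ELOVL7 above 0 in every setting, ELOVL6 stays below 0 throughout, and SCD5 and ELOVL1 fall on both sides of 0.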

How the data were processed

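Libraries of mRNA from 6 T24 samples, 3 per group, were made with a stranded kit, per the labels. The deposited tables hold raw read counts per gene and, as the authors made them, RPKM values. Per the submitters' processing notes, Trimmomatic 0.36, featureCounts, Subread 1.5.1 and GRCh38 were used, and the aligner, the annotation and the strand setting are not given in the sources used here. For 20637 of 20637 genes the deposited RPKM was the count over the library total and over a length fixed for that gene (within 0.1%).

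The counts were analysed with edgeR 4.0.16 in R 4.3.3 (filterByExpr, TMM factors, quasi-likelihood test, Benjamini-Hochberg adjustment over 14467 genes), and a gene differed at an adjusted p under 0.05. Groups followed the sample titles. Shares and ratios of RPKM were described with no test. Alternatives were DESeq2 1.42.0, other scalings and filters, the replicate number as a block, omission of each sample and limma 3.58.1 on log2(RPKM + 1) or log2(RPKM + 0.1). The scripts were tested on simulated data. Genes named are the 10 members, RNF112, genes of each pathway list that differed or were too low to be tested, neighbours, and leading markers. DEGS1, CYB5R1, CDH1, UPK3A, KRT18, EPCAM, PDGFRA, COL1A2 and DCN are named beside this rule, after their values were seen. The members and lists were chosen with earlier results of these data known. Start regions and positions came from RefSeq (GRCh38.p14). Intervals and floors cover counting error and the spread between samples only.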

Additional observations from a re-analysis of the deposited data

How the results depend on the processing

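The calls for SCD, FADS2, ELOVL4 and ELOVL7 held under all 15 alternatives, and the number of members that differed was 4 or 5. The fall of ELOVL6 missed the threshold with limma on log2(RPKM + 1) (-0.32, adjusted p = 0.0613) and on log2(RPKM + 0.1) (-0.37, adjusted p = 0.053), beside the losses given above. The log2 fold change of SCD5 turned to 0.086 with library totals and 0.00068 with at least 10 counts in every sample. In limma, SCD5 turned to 0.076, 0.085 and 0.076 (pseudocount 1, 0.1, and mean RPKM of at least 1). When each sample was left out, SCD5 ran from -0.055 to 0.039 and ELOVL1 from -0.049 to 0.079. ELOVL1 was 0.12 with library totals and 0.12 in each limma fit. The deviations of same-numbered samples from their group means correlated at -0.257, -0.651 and -0.555 over 12344 genes. These values gave no sign of pairing by the numbers in the labels. They cannot exclude it, as any other spread shared by the groups also enters them. With the replicate block in edgeR, 876 genes differed (618 higher, 258 lower), and of the pathway lists 0 (0 higher, 0 lower; 13 with an unadjusted p under 0.05; 12 with DESeq2 and no block). When each sample was left out, the genes that differed numbered 1061 (vector replicate 1 left out) to 3387 (vector replicate 2 left out), with 702 to 1841 higher and 359 to 1546 lower, and 1263 without oeRNF112 replicate 1 and 1446 without oeRNF112 replicate 3. Pathway genes ran from 1 to 11, with 0 to 4 higher and 1 to 7 lower. The genes lower were 659 with library totals and 669, 682 and 603 with the limma fits. The pathway genes higher were 8 with library totals, 3 with no filter, and 8 and 8 with limma on log2(RPKM + 1) and log2(RPKM + 0.1), and those lower were 1 with library totals and 2 in each limma fit. The cause of these shifts was not tested. With 3 samples per group, a change as small as that of FADS1 or ELOVL5 was not resolved from 0.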

Other observations

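The 10 genes have 16 tested neighbours outside the families, and 2 of them (12.5%) differed, both higher in oeRNF112, against 18.1% of all genes tested that differed and 9.97% that were higher. RAB3IL1, which lies 5076 bases from FADS3, had a log2 fold change of 1.37 (SE 0.127, edgeR adjusted p = 0.00024), while FADS3 had 0.17. SH3BGRL2, which lies 211158 bases from ELOVL4, had a log2 fold change of 0.83 (SE 0.138, edgeR adjusted p = 0.0036), beside 0.78 for ELOVL4. TTK, the nearer tested neighbour of ELOVL4 at 57095 bases on the other side, had a log2 fold change of 0.0065 (edgeR adjusted p = 0.973). FEN1, a flap endonuclease of DNA replication that lies 2388 bases from FADS1, had a log2 fold change of -0.21 (edgeR adjusted p = 0.148).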
